A study of Homo sapiens with 6 samples.

Results

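The cholesterol and fatty acid synthesis genes described here are 35 genes chosen by name, as enzymes of the mevalonate route and of sterol synthesis, as genes that control the SREBP transcription factors, and as enzymes of fatty acid synthesis. The table of counts holds 57341 gene names, of which 16710 passed the filter on low counts and were tested, and all 35 genes were among them. RNA was sequenced from 3 libraries labelled as parental H295R, a human adrenocortical carcinoma line, and from 3 labelled as the Ptch1 positive subpopulation of that line (H295R-PM-Ptc+). The subpopulation was sorted by flow cytometry for surface Ptch1, the Hedgehog receptor, and expanded in culture. Both groups come from the same line, received no treatment and grew in the same medium with 2% NuSerum and ITS+. No transgene and no cloning step is named for either group.

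Cholesterol is built from acetyl-CoA through mevalonate, farnesyl diphosphate, squalene and lanosterol. When sterols in the endoplasmic reticulum are low, SCAP carries the SREBP precursors to the Golgi, where a pair of proteases releases the active factor, which then switches on genes of sterol and fatty acid synthesis; INSIG proteins hold SCAP back when sterols are plentiful. Cells of the adrenal cortex use cholesterol as the starting material for steroid hormones and obtain it by synthesis as well as from lipoproteins.

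The libraries held between 23264403 and 25813247 counted fragments, and levels are given as CPM, counts scaled to a common library size with TMM factors. PTCH1, the gene the sort was aimed at, went against the labels. It had 441, 559 and 579 counts in the H295R-labelled libraries and 248, 326 and 319 in the H295R-PM-Ptc+-labelled ones, and so fell there (log2 fold change -0.81, standard error 0.147, adjusted p = 0.0207, and 1.72e-06 with the replicate number as a block). The call was lost without H295R replicate 2 (adjusted p = 0.0799) or 3 (0.0921) or H295R-PM-Ptc+ replicate 2 (0.0618). The authors' own table of normalized values carries the group names the other way round, since each of its 6 columns was closest to the deposited library that has its replicate number but the other group. The counts cannot tell which names are right. The libraries are therefore called by their deposited labels, and every fold change below sets the H295R-PM-Ptc+-labelled libraries against the H295R-labelled ones. The sum of 8 adrenocortical marker genes (NR5A1, STAR, CYP11A1, CYP17A1, CYP21A2, HSD3B2, NR0B1 and MC2R) lay between 881 and 1162 CPM in the H295R-labelled libraries and between 961 and 1220 CPM in the others, with none of the 8 at 0. The sum joins markers that differed in direction, since CYP21A2 rose (log2 fold change 0.88, adjusted p = 0.00670), and with the block STAR also rose (0.41, adjusted p = 3.91e-06) and CYP11A1 fell (-0.25, adjusted p = 0.00100). PTPRC and LUM, defining markers of leukocytes and of fibroblasts, were at 0 in all 6 libraries. In RNA from whole cultures, fewer cells of a type and less RNA per cell cannot be told apart.

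Sterol regulatory elements are short promoter sequences to which SREBP factors bind, often close to a CCAAT box. RefSeq promoter windows of GRCh38.p14, from 250 bases before to 50 bases after the transcription start, were found for 31 of the 35 genes and searched on both strands. The element TCACNCCAC was present in 1 of the 31, in SREBF2, against 1.39% of all 27305 genes with a window. A looser form, TCACNCNAC, which was chosen after the first search was seen and includes every match of the stricter one, was present in 5 of the 31 against 3.13% of all genes. These 5 stretches are shown because they are the matches in genes whose RNA is described below, each read 5′ to 3′ with the matching bases in capitals.
FDPS, chr1:155308716-155308744, plus strand: tgcgccatgcTCACACGACggccagcagc
HSD17B7, chr1:162790594-162790622, plus strand: tcggcctatcTCACCCGACgccgtctccg
FADS2, chr11:61815973-61816001, plus strand: cctccagtctTCACACGACgcaggggtcc
ACSS2, chr20:34876364-34876392, plus strand: ccttctgcttTCACTCGACggcgtcactc
SREBF2, chr22:41832962-41832990, plus strand: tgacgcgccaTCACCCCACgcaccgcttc
The matches began 140, 98, 220, 238 and 133 bases before the transcription start of FDPS, HSD17B7, FADS2, ACSS2 and SREBF2, in that order. In the annotation the stretch of FADS2 also lies in an exon of FADS1, which is read from the other strand, and that of SREBF2 in an exon of RP5-821D11.7. CCAAT was present in 21 of the 31 windows against 39.7% of all genes, and the E box CACGTG in 4 of the 31 (INSIG1, LSS, SC5D and SCAP) against 8.78%. A match is a run of letters in the window and not a measured site, and windows without one say nothing about binding.

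Across the 35 genes, most levels were lower in the H295R-PM-Ptc+-labelled libraries. The sum of their CPM was 10679, 8019 and 8356 in the H295R-labelled libraries, replicates 1, 2 and 3 (the order used throughout), and 7751, 6874 and 6781 in the H295R-PM-Ptc+-labelled ones. Replicate 1 was the highest library of each group, and all 3 sums of one group lay below all 3 of the other. Of the 35 genes, 28 had a log2 fold change below 0 and 7 above 0, with a median of -0.20, against 49.8% of all tested genes below 0 and a median of 0.00094. In the test of 3 against 3, 4 genes fell (ACAT2, HMGCS1, ACLY and ELOVL6) at an adjusted p under 0.05, where 1.32% of all tested genes fell, and 1 gene rose (MBTPS2), where 2.42% rose. The same-numbered libraries deviated together, and with a block for the replicate number 21 genes fell, where 10.4% of all tested genes did, and 2 rose (MBTPS2 and FADS2), where 12.1% did. The groups did not overlap in 14 genes that were lower in the H295R-PM-Ptc+-labelled libraries, against 11.2% of all tested genes, and in 3 that were higher (MBTPS2, TM7SF2 and MYLIP), against 12.4%. All 3 replicate pairs were lower in 22 genes, against 25.7% of all tested genes, and all 3 were higher in 4, against 26.9%. Nothing in the labels says that replicates came from separate cultures, so the p-values measure the spread between these libraries, which may be technical.

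**Figure D1:**
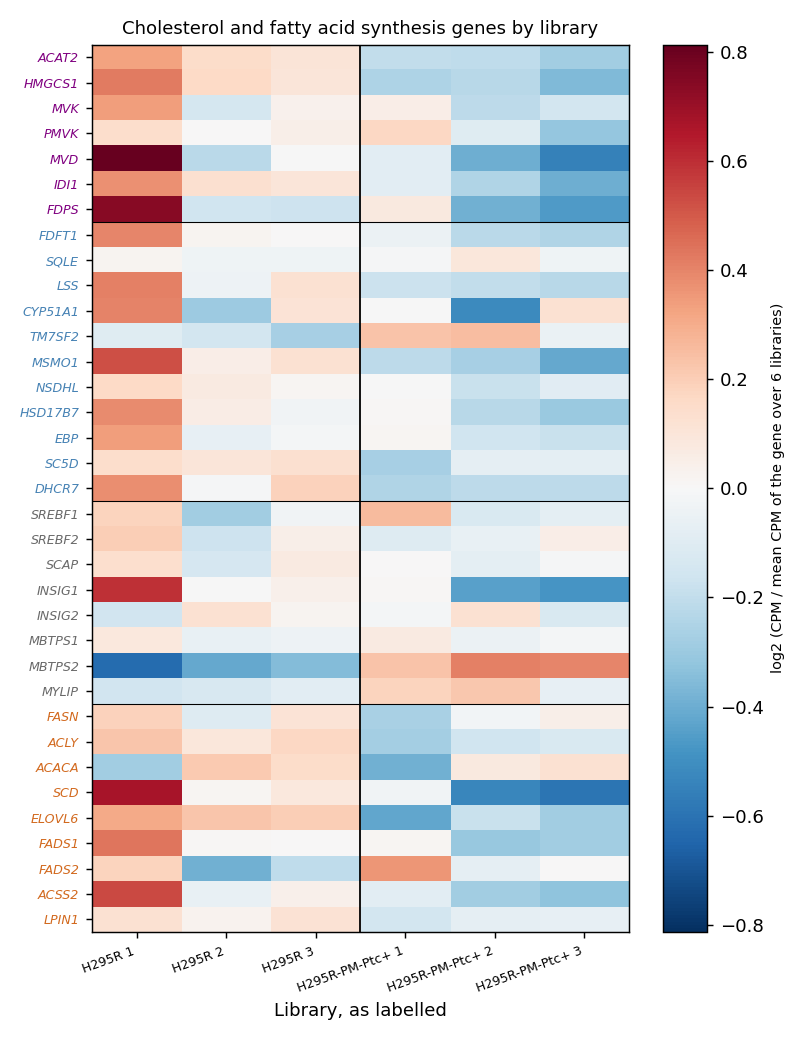
Each row is one of the 35 genes (label colour by role, from the mevalonate route at the top to fatty acid genes at the bottom), each column a library as labelled, and colour the log2 ratio of its CPM to the gene's mean over 6 libraries. Most rows are on average redder in the libraries labelled H295R than in those labelled H295R-PM-Ptc+. Many of these rows do not keep 1 colour through all 3 libraries of a group. MBTPS2 runs the other way, and H295R replicate 1 is the reddest column.

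The 7 genes of the mevalonate route were all lower, with a median log2 fold change of -0.44. Of these, 2 fell in the test of 3 against 3, where 1.32% of all tested genes did, and 6 with the replicate block, where 10.4% did, with PMVK as the exception. HMGCS1, the synthase that makes HMG-CoA, was at 1322, 1106 and 1058 CPM in the H295R-labelled libraries and at 829, 844 and 769 CPM in the H295R-PM-Ptc+-labelled ones. Every library labelled H295R was above every one labelled H295R-PM-Ptc+, and the level fell by 30.0%, or was 1.43-fold higher in the H295R-labelled libraries (log2 fold change -0.51, standard error 0.101, adjusted p = 0.0276, and 3.89e-06 with the block). ACAT2, the cytosolic thiolase that joins acetyl-CoA units at the start of the route, was at 283, 249 and 242 CPM against 196, 195 and 185 CPM. It also did not overlap between the groups and fell by 25.5%, or was 1.34-fold higher in the H295R-labelled libraries (log2 fold change -0.42, standard error 0.0833, adjusted p = 0.0281, and 7.51e-06 with the block). Both calls depended on the libraries kept. Leaving out one library at a time, HMGCS1 kept its call only without H295R replicate 1 (adjusted p = 0.0192) and lost it, with 0.0713 and 0.0530 without H295R replicates 2 and 3 and with 0.0590, 0.0836 and 0.132 without H295R-PM-Ptc+ replicates 1, 2 and 3. The same held for ACAT2, with an adjusted p of 0.0272 without H295R replicate 1, 0.0731 and 0.0648 without H295R replicates 2 and 3, and 0.0554, 0.107 and 0.139 without H295R-PM-Ptc+ replicates 1, 2 and 3. With the block both stayed called in all 6 such fits. Leaving out either library of a replicate pair rests the blocked group difference on the same remaining pairs, so these are not 6 separate checks.

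Further along the route, IDI1, the isomerase that interconverts the isoprenoid building blocks, was at 171, 145 and 142 CPM against 124, 112 and 101 CPM, again without overlap. Its adjusted p was 0.0579 in the test of 3 against 3, 0.0471 without H295R-PM-Ptc+ replicate 1 and 3.91e-06 with the block (log2 fold change -0.44). FDPS, which makes farnesyl diphosphate, was at 540.0, 289 and 288 CPM against 343, 247 and 236 CPM. Here replicate 1 of each group stood far above the other two, the groups overlapped, and the adjusted p was 0.421 without the block and 3.11e-04 with it (log2 fold change -0.39). Without H295R or H295R-PM-Ptc+ replicate 1 the blocked log2 fold change of FDPS was -0.26 in both cases and stayed called (adjusted p = 4.24e-05 and 8.93e-05), while without the block and without H295R replicate 1 it was -0.07 (adjusted p = 0.830). MVD, the decarboxylase before IDI1, had a like pattern. It was at 124, 60.7 and 70.7 CPM against 66.7, 53.7 and 48.4 CPM, and the adjusted p was 0.251 without the block and 3.15e-04 with it (log2 fold change -0.55). Without H295R or H295R-PM-Ptc+ replicate 1 the blocked log2 fold change of MVD was -0.36 and -0.37 and stayed called (adjusted p = 3.05e-04 and 6.39e-04), and without the block and without H295R replicate 1 it was -0.23 (adjusted p = 0.375). The log2 fold changes of the kinases were closer to 0. MVK, mevalonate kinase, was at 78.6, 56.2 and 63.4 CPM against 64.3, 53.6 and 55.8 CPM, with adjusted p = 0.510 and 0.0228 with the block, a call that was lost without replicate 1 or without replicate 3 of either group (adjusted p between 0.0808 and 0.127). PMVK, which adds the second phosphate, was at 23.2, 21.1 and 21.8 CPM against 23.7, 19.7 and 17.0 CPM, with adjusted p = 0.668 and 0.236 with the block; without replicate 1 of either group its blocked adjusted p was 0.0421 and 0.0450.

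From squalene to cholesterol, none of the 11 genes passed the test of 3 against 3, while 8 fell with the replicate block, where 10.4% of all tested genes did, and 3 did not pass (SQLE, CYP51A1 and TM7SF2). DESeq2 called 2 of the 11 lower and none higher, against 2.08% and 3.37% of all tested genes, and at an unadjusted p under 0.05 edgeR gave 6 lower and 1 higher, against 7.67% and 9.60%. The median log2 fold change was -0.26. MSMO1, which removes methyl groups from the sterol ring, was at 132, 95.5 and 100.1 CPM against 79.2, 76.3 and 68.9 CPM. The groups did not overlap, and its adjusted p was 0.0505, 0.0307 without H295R replicate 1 and 1.52e-05 with the block (log2 fold change -0.55, standard error 0.126). DHCR7, the reductase of a last step to cholesterol, was at 392, 300.2 and 344 CPM against 255, 261 and 261 CPM. It did not overlap either, with adjusted p = 0.0593, 0.0396 without H295R replicate 2 and 1.35e-04 with the block (log2 fold change -0.42, standard error 0.101). LSS, lanosterol synthase, was at 342, 250.1 and 280.1 CPM against 228, 224 and 219.5 CPM, and the 3 H295R-PM-Ptc+-labelled libraries lay closer together than the H295R-labelled ones. Its log2 fold change was -0.38 (standard error 0.112), with adjusted p = 0.110 and 3.93e-04 with the block.

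FDFT1, squalene synthase, was at 580.5, 448 and 442 CPM against 426, 379 and 373 CPM, with replicate 1 highest in each group but no overlap and an adjusted p of 0.201 and 2.14e-04 with the block. HSD17B7, a sterol ketone reductase and one of the genes with a printed promoter match, was at 56.3, 45.0 and 42.3 CPM against 43.3, 36.8 and 34.9 CPM, and replicate 1 of the H295R-PM-Ptc+-labelled libraries lay above replicate 3 of the H295R-labelled ones. Its adjusted p was 0.231 and 6.30e-04 with the block, and HSD17B7P2, a pseudogene of similar sequence, held 11.5% as many counts. SC5D, a sterol desaturase, was at 75.4, 73.1 and 74.5 CPM against 56.6, 64.9 and 64.6 CPM, without overlap, with adjusted p = 0.115 and 0.00258 with the block. EBP, the sterol isomerase, was at 188, 142 and 147 CPM against 150.3, 133 and 131 CPM, with replicate 1 of each group highest and an adjusted p of 0.426 and 0.00817 with the block. NSDHL, a sterol dehydrogenase, was at 99.4, 93.5 and 89.8 CPM against 89.0, 78.6 and 83.6 CPM, without overlap. Its adjusted p was 0.317 without the block, and its blocked adjusted p of 0.0176 rose to 0.146 and 0.148 without H295R or H295R-PM-Ptc+ replicate 2 and to 0.0537 and 0.0534 without replicate 3.

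The other 3 sterol genes did not pass either fit. SQLE, squalene epoxidase, was at 62.4, 59.9 and 60.0 CPM against 61.0, 65.5 and 60.0 CPM, with the libraries of both groups interleaved (log2 fold change 0.03, standard error 0.0711). CYP51A1, lanosterol demethylase, was at 13.9, 8.54 and 11.3 CPM against 10.5, 7.32 and 11.4 CPM, and its groups overlapped as well. Its level is uncertain, since 78.8% of its exon bases are shared on the same strand with LRRD1, where the counting can leave fragments unassigned, and since its pseudogenes CYP51A1P1 and CYP51A1P2 held 87 and 155 counts in all, against 1543 of CYP51A1. TM7SF2, a sterol reductase, had a fold change above 0 at 4.60, 4.45 and 4.09 CPM against 5.79, 5.87 and 4.75 CPM. All its libraries labelled H295R-PM-Ptc+ were above all the H295R-labelled ones, though the difference of 0.32 on the log2 scale (standard error 0.139) had an adjusted p of 0.277 and 0.0770 with the block.

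**Figure D2:**
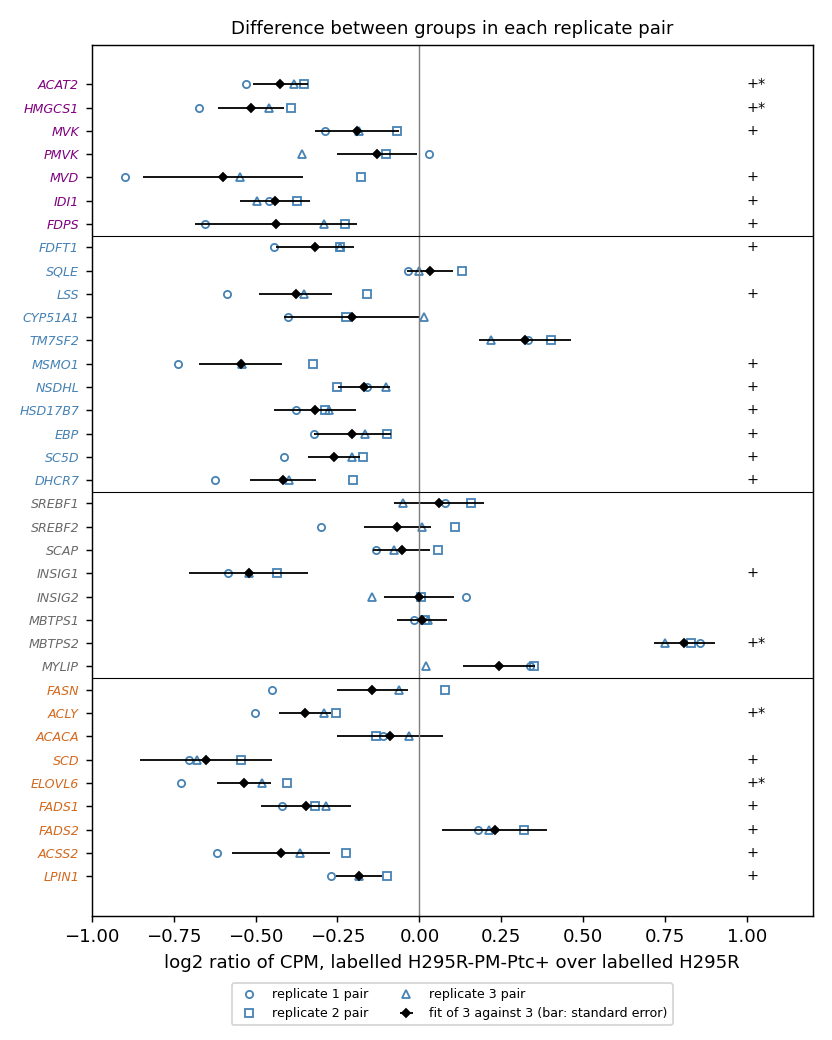
For each of the 35 genes the open symbols give the log2 ratio of CPM of the H295R-PM-Ptc+-labelled over the H295R-labelled library of replicates 1, 2 and 3, and the black diamond the fitted log2 fold change with its standard error as a bar; an asterisk marks an adjusted p under 0.05 without and a plus sign with the replicate block. In 22 genes all 3 pairs lie below 0 and in 4 all lie above, with MBTPS2 the farthest to the right.

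Of the 8 genes that control SREBP, 1 rose (MBTPS2) and none fell in the test of 3 against 3, where 2.42% and 1.32% of all tested genes did. With the block MBTPS2 rose and INSIG1 fell, where 12.1% and 10.4% of all tested genes did. At an unadjusted p under 0.05 edgeR gave 1 lower and 1 higher gene, where 7.67% and 9.60% of all tested genes were, and DESeq2 called 1 higher and 0 lower, where 3.37% and 2.08% were. With 8 genes, counts of 1 are too few to set the list apart from those shares. MBTPS2, the second of the proteases that cut SREBP, was at 32.4, 37.4 and 39.1 CPM in the H295R-labelled libraries and at 58.6, 66.4 and 65.7 CPM in the H295R-PM-Ptc+-labelled ones. All libraries of one group lay far above all of the other, and the level rose 1.75-fold (log2 fold change 0.81, standard error 0.0934, adjusted p = 0.00211, and 3.65e-08 with the block). It was called in every fit that left out one library, with adjusted p between 0.00137 and 0.0158. MBTPS1, the first protease of the pair, was at 229, 207 and 209.8 CPM against 227, 209 and 213 CPM and did not pass (log2 fold change 0.01, standard error 0.0771).

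MBTPS2 lies at chrX:21839636-21885424 on the plus strand (hg38), and 13.4% of its exon bases are shared with small genes on the same strand, among them YY2. The 20 tested genes nearest to it, 10 on each side between positions 18890296 and 23907934, had a median log2 fold change of 0.0067, with 12 above 0 and 8 below. Among them 1 gene, GPR64 (log2 fold change 0.33), passed the test of 3 against 3, where 3.73% of all tested genes passed in either direction, and 4 passed with the block, where 22.5% did. GPR64 and YY2 are named here after their values were seen. YY2 had 47, 64 and 57 counts in the H295R-labelled libraries and 77, 73 and 86 in the others, and its difference did not pass the test of 3 against 3 (adjusted p = 0.172) and passed with the block (adjusted p = 0.0389).

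INSIG1, which retains SCAP in the endoplasmic reticulum and is itself a classical target of SREBP, was at 538, 355 and 366 CPM against 359, 262 and 256 CPM. Replicate 1 was high in both groups, and the replicate 1 library labelled H295R-PM-Ptc+ lay above replicate 2 labelled H295R, so the groups overlapped. Within the replicate pairs the log2 ratios were close together at -0.58, -0.43 and -0.52, and the adjusted p was 0.178 without the block and 6.01e-07 with it (log2 fold change -0.51). INSIG2, its homolog, was at 17.5, 21.2 and 19.8 CPM against 19.2, 21.2 and 17.9 CPM and did not pass (log2 fold change -0.0011, standard error 0.106). The factors and their carrier did not pass either. SREBF1 was at 164, 119.6 and 143 CPM against 174, 133 and 138 CPM, and its highest libraries were replicate 1 of both groups. SREBF2 was at 245, 190.4 and 221 CPM against 199, 205 and 222 CPM, and SCAP at 257, 213 and 246 CPM against 235, 222 and 233 CPM. The adjusted p of these 3 lay at 0.885, 0.809 and 0.823, and at 0.395, 0.512 and 0.475 with the block. MYLIP, a ubiquitin ligase that lowers lipoprotein receptors and is induced through LXR, was at 10.1, 10.3 and 10.6 CPM against 12.8, 13.2 and 10.8 CPM. Its groups did not overlap, but the pair of replicate 3 differed by a log2 ratio of 0.02 only, and the adjusted p was 0.301 and 0.0785 with the block.

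Among the 9 fatty acid and lipid genes, 2 fell in the test of 3 against 3 (ACLY and ELOVL6), where 1.32% of all tested genes did. With the block 6 fell, where 10.4% did, and 1 rose (FADS2), which is near the 12.1% of all tested genes that rose. ELOVL6, which lengthens fatty acids made by the synthase, was at 63.5, 60.0 and 58.9 CPM against 38.3, 45.3 and 42.2 CPM. The groups were well apart, and it fell by 31.0%, or was 1.45-fold higher in the H295R-labelled libraries (log2 fold change -0.54, standard error 0.0833, adjusted p = 0.00977, and 1.38e-05 with the block), with a loss of the call without H295R-PM-Ptc+ replicate 3 (adjusted p = 0.0552). ACLY, which makes cytosolic acetyl-CoA from citrate, was at 412, 376 and 396 CPM against 291, 316 and 324 CPM. It did not overlap and fell by 21.5%, or was 1.27-fold higher in the H295R-labelled libraries (log2 fold change -0.35, standard error 0.0785, adjusted p = 0.0465, and 9.79e-05 with the block). The call of ACLY was at the edge of the threshold, and with a minimum of 10 counts per library its adjusted p was 0.0531. It was lost without any one library, with adjusted p values of 0.0562, 0.0965 and 0.156 without H295R replicates 1, 2 and 3 and of 0.108, 0.154 and 0.131 without H295R-PM-Ptc+ replicates 1, 2 and 3.

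SCD, the desaturase that makes oleate from stearate, was at 2246, 1425 and 1498 CPM against 1380.0, 976 and 935 CPM. Replicate 1 again stood apart in each group, and the highest library labelled H295R-PM-Ptc+ stayed just under the lowest labelled H295R. In the test of 3 against 3 the adjusted p was 0.123 (log2 fold change -0.65, standard error 0.200), with DESeq2 it was 0.0194, and with the block 8.43e-08. ACSS2, which makes acetyl-CoA from acetate, was at 165, 109 and 117 CPM against 107, 93.5 and 90.9 CPM, with adjusted p = 0.183 and 1.57e-04 with the block. LPIN1, a phosphatidate phosphatase of triglyceride synthesis, was at 127, 119 and 127 CPM against 105, 111 and 111 CPM, a small difference without overlap (log2 fold change -0.18). Its adjusted p was 0.222 without the block, and its blocked adjusted p of 0.0101 rose to 0.0823 and 0.0809 without H295R or H295R-PM-Ptc+ replicate 3. FASN, the fatty acid synthase, was at 416, 340.1 and 395 CPM against 304, 359 and 378 CPM, and ACACA, the acetyl-CoA carboxylase that feeds it, at 127, 179 and 172 CPM against 118, 164 and 168 CPM. These genes did not pass either fit with all libraries, with adjusted p of 0.563 and 0.847, and 0.158 and 0.155 with the block; without H295R or H295R-PM-Ptc+ replicate 2 the blocked adjusted p of FASN was 3.21e-04 and 2.65e-04.

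The desaturases FADS1 and FADS2, which act in turn on polyunsaturated fatty acids and overlap on chromosome 11 on opposite strands (chr11:61799625-61829318, minus, and chr11:61792980-61867354, plus, hg38), moved in opposite directions with the block. FADS1 was at 569.7, 425 and 422 CPM against 426, 341 and 346 CPM, with a lower level in each pair (log2 ratios -0.42, -0.32 and -0.29). FADS2 was at 569.7, 384 and 436 CPM against 645, 479 and 505 CPM, with a higher level in each pair (log2 ratios 0.18, 0.32 and 0.21). Both overlapped between the groups through replicate 1, and neither passed without the block, with adjusted p of 0.236 and 0.528, against 3.60e-05 and 0.00103 with it. The ratio of FADS1 to FADS2 in CPM, formed after their values were seen, was 1.00, 1.11 and 0.967 in the H295R-labelled libraries and 0.661, 0.712 and 0.685 in the H295R-PM-Ptc+-labelled ones. The ratios of the groups did not overlap (1.03 ± 0.0735 and 0.686 ± 0.0255, SD, n = 3 each; two-sided exact permutation test p = 0.1, the smallest that 3 against 3 allows, and 0.25 when adjusted over 5 ratios).

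**Figure D3:**
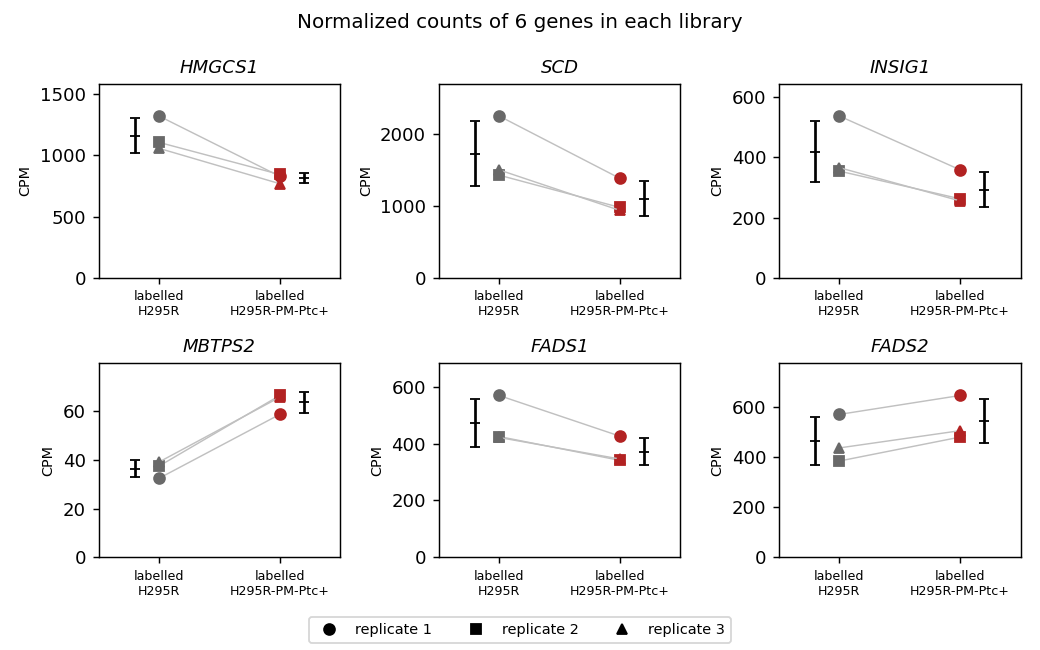
Each panel gives the CPM of one gene in the 3 libraries labelled H295R (gray) and the 3 labelled H295R-PM-Ptc+ (red), with lines joining the same replicate number and bars at the mean ± SD of 3 libraries. HMGCS1, SCD, INSIG1 and FADS1 slope down in each pair, MBTPS2 and FADS2 slope up, and replicate 1 is the highest library of both groups in SCD, INSIG1, FADS1 and FADS2.

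Per length of counted exons, the 35 genes spread widely, with SCD the highest. In FPKM (CPM per kilobase, mean ± SD of 3 libraries), SCD stood at 321 ± 84.8 in the H295R-labelled libraries and 205 ± 45.8 in the H295R-PM-Ptc+-labelled ones, followed by HMGCS1 at 247 ± 29.9 and 173 ± 8.48 and by INSIG1 at 115 ± 28.1 and 80.1 ± 15.8. FDPS followed at 100.2 ± 39.0 in the H295R-labelled libraries and was within its spread of FDFT1 at 94.2 ± 15.1. The synthase and the carboxylase of fatty acid synthesis stood lower, with FASN at 42.7 ± 4.35 and ACACA at 6.73 ± 1.19 in the same libraries. Of the SREBP genes, SREBF2 at 28.9 ± 3.63 was above SREBF1 at 17.7 ± 2.79. The lowest of the 35 were MYLIP at 3.42 ± 0.0852, CYP51A1 at 2.76 ± 0.652 and TM7SF2 at 1.29 ± 0.0780.

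Replicate number was a second axis along which these genes varied. The replicate codes of the labels are shared by the same-numbered libraries of both groups, and replicate 1 was set against the mean of replicates 2 and 3 in a model that also held the group. Of the 35 genes, 19 were higher in replicate 1 at an adjusted p under 0.05, where 14.2% of all tested genes were, and 2 were lower (ACACA and MBTPS2), where 16.6% were. In 20 genes the replicate 1 library was above both other libraries in each group, against 27.1% of all tested genes. The largest rises were in FDPS (log2 fold change 0.71, standard error 0.0652, adjusted p = 9.87e-07), MVD (0.67, 0.0912, 4.64e-05), SCD (0.58, 0.0477, 4.03e-07) and INSIG1 (0.52, 0.0456, 6.06e-07). Next among the rises came FADS2 (0.43), ACSS2 (0.39), FADS1 (0.37), CYP51A1 (0.35) and SREBF1 (0.34). Of the mevalonate genes 6 of 7 were higher in replicate 1 and of the sterol genes 6 of 11. ACACA was lower (log2 fold change -0.48, standard error 0.0476, adjusted p = 2.16e-06), with FASN not passing (-0.04), while 6 mevalonate genes and the desaturases SCD, FADS1 and FADS2 were higher in the same libraries.

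Both differences were called in 16 of the 35 genes when the group difference was taken with the block, where 8.97% of all tested genes were called in both. Of these, 14 were lower in the H295R-PM-Ptc+-labelled libraries and higher in replicate 1, where 2.5% of all tested genes were. FADS2 was higher in both contrasts, and MBTPS2 was higher in the H295R-PM-Ptc+-labelled libraries and lower in replicate 1. A further 7 genes were called for the group alone (ACAT2, NSDHL, SC5D, DHCR7, ACLY, ELOVL6 and LPIN1), 5 for the replicate alone (PMVK, CYP51A1, SREBF1, MBTPS1 and ACACA), and 7 for neither. Over all tested genes, 22.5% were called for the group with the block. In replicate 1, 14.2% of all tested genes were higher and 16.6% lower. No share was taken for 1 contrast alone, so nothing is read from the counts of 7 and 5. Without replicate 1 of either group, a choice made after the values were seen, 18 of the 35 genes were called in the test of 2 against 2 without the block, 16 lower, where 5.34% of all tested genes were, and 2 higher, where 6.67% were. Among them were SCD (adjusted p = 6.57e-05), INSIG1 (1.72e-04) and HMGCS1 (0.00120). The summed adrenocortical markers were also highest in replicate 1 of each group, and their part in the difference was not tested. What the replicate codes stand for is not said in the labels.

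**Figure D4:**
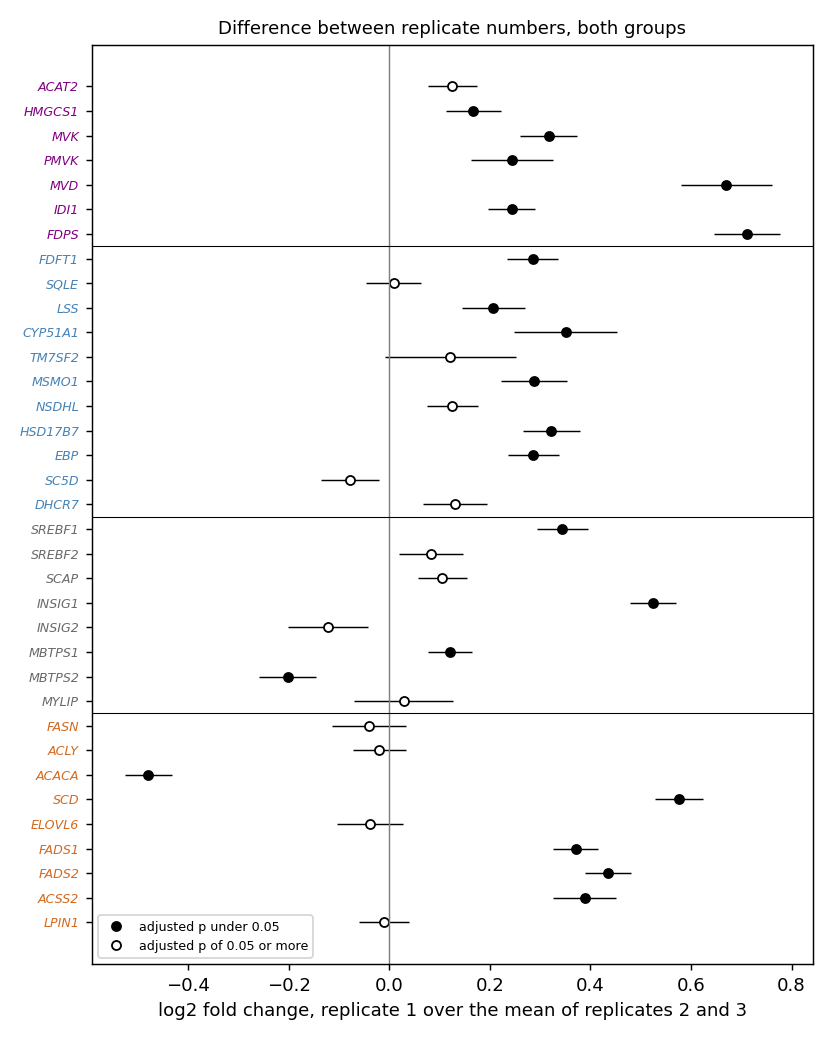
For each of the 35 genes the point gives the log2 fold change of replicate 1 over the mean of replicates 2 and 3, over both groups, with its standard error as a bar, filled where the adjusted p is under 0.05. Of the 21 filled points 19 lie to the right of 0, FDPS and MVD farthest, and ACACA and MBTPS2 lie to the left.

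Beyond the 35 genes, other genes of these pathways were counted. Of 54 further genes (prenyl and ubiquinone synthesis, other fatty acid enzymes, sterol control in the endoplasmic reticulum, and LXR with its targets), 52 were tested, and their median log2 fold change was -0.02. In the test of 3 against 3, 2 of them fell (ELOVL2 and FADS3) and 1 rose (ACSS1), where 1.32% and 2.42% of all tested genes did, and with the block 12 fell and 3 rose, where 10.4% and 12.1% did. Of the 12 genes of prenyl and ubiquinone synthesis, which draw on the same farnesyl diphosphate, GGPS1 alone passed with the block, at 34.0, 32.4 and 33.0 CPM against 29.3, 29.5 and 29.1 CPM (adjusted p = 0.0415). That call was lost without any one library, with blocked adjusted p values of 0.0704, 0.0822 and 0.196 without H295R replicates 1, 2 and 3 and of 0.0664, 0.0836 and 0.195 without H295R-PM-Ptc+ replicates 1, 2 and 3. ACSS1, the mitochondrial counterpart of ACSS2, was at 39.4, 49.6 and 51.7 CPM against 93.2, 105 and 104 CPM. It rose 2.14-fold, with no overlap (log2 fold change 1.10, standard error 0.110, adjusted p = 0.00116), while ACSS2 was lower and passed with the block only. ELOVL2, an elongase of polyunsaturated fatty acids, was at 15.6, 14.4 and 17.1 CPM against 8.10, 8.25 and 10.8 CPM and fell (log2 fold change -0.80, standard error 0.135, adjusted p = 0.0144). FADS3, a further gene of the FADS family, was at 81.6, 69.2 and 69.5 CPM against 54.1, 54.3 and 51.6 CPM and fell as well (log2 fold change -0.46, standard error 0.0853, adjusted p = 0.0216). ELOVL2 lost its call without H295R replicate 3 (0.0698) or H295R-PM-Ptc+ replicate 2 (0.0716), and FADS3 without H295R replicate 3 (0.0619) or H295R-PM-Ptc+ replicate 2 (0.0862) or 3 (0.115).

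With the block, 8 of the 22 tested fatty acid genes of these lists fell (ELOVL2, HSD17B12, SCD5, FADS3, OXSM, ACSL3, ACSL4 and SLC25A1), where 10.4% of all tested genes did. Of the 22, 1 rose (ACSS1), where 12.1% did. HSD17B12, which works with the elongases, was at 50.9, 47.1 and 49.4 CPM against 41.2, 39.7 and 42.0 CPM (adjusted p = 0.00224). ACSL4, an acyl-CoA synthetase that prefers polyunsaturated fatty acids, was at 47.5, 50.5 and 46.0 CPM against 36.5, 39.3 and 39.6 CPM (adjusted p = 7.29e-04). Neither overlapped between the groups. SLC25A1, the citrate carrier that supplies ACLY, was at 224, 137 and 161 CPM against 159.5, 129 and 129.8 CPM, with replicate 1 highest in each group, and passed with the block (adjusted p = 0.00175). SCD5 changed by -0.24 on the log2 scale (adjusted p = 0.00187), OXSM by -0.35 (0.00434) and ACSL3 by -0.17 (0.0202), all with the block. Among the 9 genes of sterol control in the endoplasmic reticulum, AUP1 fell with the block (-0.16 on the log2 scale, adjusted p = 0.0189), where 10.4% of all tested genes fell. Of LXR and its targets, ABCA1, the cholesterol exporter, was at 5.57, 5.83 and 5.95 CPM against 6.06, 7.32 and 8.81 CPM and rose with the block (adjusted p = 0.0447), while RXRA (-0.20, 0.0203) and LPCAT3 (-0.17, 0.0290) fell. Among the 9 genes of that list, 1 rise and 2 falls are too few to set apart from the 12.1% and 10.4% of all tested genes. Of these calls with the block, 5 were lost without some libraries. Without H295R or H295R-PM-Ptc+ replicate 2 the adjusted p was 0.0769 and 0.0776 for ACSL3, 0.139 and 0.142 for AUP1, 0.0900 and 0.0920 for ABCA1, and 0.145 and 0.147 for LPCAT3. Without H295R or H295R-PM-Ptc+ replicate 3 it was 0.169 and 0.167 for ACSL3, 0.0834 and 0.0828 for AUP1, 0.425 and 0.429 for ABCA1, 0.209 and 0.208 for LPCAT3, and 0.120 and 0.117 for RXRA, which also lost its call without replicate 1 (0.0848 and 0.0822).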

How the data were processed

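The authors mapped paired-end reads of stranded libraries with STAR 2.4.0a to hg38, used featureCounts with an Ensembl annotation to count fragments by gene name (primary alignments, multiply mapped reads included) and deposited the raw counts with the exon length of each gene. The paper and the labels differ in the library kit (mRNA or total RNA) and in the Subread version. From these counts, genes passing filterByExpr were tested with edgeR 4.0.16 in R 4.3.3 (TMM, quasi-likelihood F-test, two-sided, group as the only term, Benjamini-Hochberg over all 16710 genes); the row of spike-ins held 0 counts and was left out. Same-numbered replicates were taken as pairs. Their deviations from the group means correlated at 0.497, 0.307 and 0.228, against -0.352 to 0.150 for other pairs. All the negative values involve replicate 1, and the other pairs of replicates 2 and 3 correlated at 0.109 and 0.150. These values come from the same counts and the paper states no pairing, so the block is the alternative. Others were DESeq2 1.42.0, limma-voom (limma 3.58.1), relative log expression size factors, no filter, a minimum of 10 counts per library, and leaving out each library. The scripts were tested on simulated data. FPKM divide CPM by exon length. The 35 genes and the other lists were chosen with earlier results of these data known. All 35 are named, and of the other lists those with an adjusted p under 0.05 with or without the block, except 1 that is not reported here. Promoter windows were taken from RefSeq, and those of ACAT2, FASN, FDFT1 and SQLE were not used here. Tables and figures were made with Python 3.11.15, pandas 2.3.3 and matplotlib 3.10.9.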

Additional observations from a re-analysis of the deposited data

How the results depend on the processing

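Between the groups 5 of the 35 genes passed, where 3.73% of all tested genes did, and 23 passed with the replicate block, where 22.5% did. With DESeq2 9 passed, where 3.37% of all tested genes rose and 2.08% fell. Without a filter on low counts 13 passed, and 1 to 5 when one library was left out. For these last settings no share of all tested genes was taken, so a general change in calls cannot be told apart. The 4 genes called lower became 8 with DESeq2, 12 without a filter, 21 with the replicate block and 0 to 4 when one library was left out, with 0 without H295R-PM-Ptc+ replicate 3, where MBTPS2 alone passed; the 1 called higher became 2 with the block. Alternatives chosen after seeing the data were the block with one library left out, which gave 20 to 23 genes, 18 to 21 lower and 2 higher, and leaving out replicate 1 of either group, which gave 18 genes (16 lower, 2 higher) without and 23 (21 lower, 2 higher) with the block. The 3 other pathway genes became 15 with the block, 1 to 3 with one library left out, 8 to 15 with both (8, 10, 11 or 15), and 7 without replicate 1 of either group (15 with the block). Limma-voom, relative log expression factors and at least 10 counts in every library kept these counts within 1.5 times. The median log2 fold change of the 35 genes stayed between -0.30 and -0.17 under all alternatives (-0.29 to -0.17 with one library left out), and the 21 genes called between replicates came to 16 to 25 without one library and 15 with DESeq2.

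The sign of 8 genes that passed no fit with all libraries changed in some settings, with log2 fold changes as follows. With one library left out SQLE ranged from -0.0073 to 0.050, SREBF1 from -0.077 to 0.18, SREBF2 from -0.16 to 0.021, SCAP from -0.13 to 0.00051, INSIG2 from -0.075 to 0.063, MBTPS1 from -0.034 to 0.054 and ACACA from -0.23 to 0.050. With the block and one library left out SQLE ranged from -0.018 to 0.064, SREBF2 from -0.15 to 0.057 (0.054 without H295R-PM-Ptc+ replicate 1), INSIG2 from -0.071 to 0.060 (0.059 without H295R replicate 3), MBTPS1 from -0.011 to 0.020 and FASN from -0.26 to 0.0069 (0.0037 without H295R-PM-Ptc+ replicate 1). Without replicate 1 of either group SREBF2 was at 0.055 and FASN at 0.0042, and with the block too at 0.058 and 0.0076. INSIG2 was at 0.00082 with at least 10 counts and at 0.00015 with the block. The cause of these changes was not tested. With the block 2 residual degrees of freedom remain, against 4 without, and genes of low count, such as TM7SF2, are the least precise. Blocked fits with one library left out have fewer still. Those without either library of a replicate pair rest on the same remaining pairs.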

Other observations

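In ratios of CPM within a library, formed after the values were seen, MBTPS2 to MBTPS1 stood at 0.141, 0.181 and 0.186 in the libraries labelled H295R and at 0.259, 0.318 and 0.308 in those labelled H295R-PM-Ptc+, without overlap (two-sided exact permutation test p = 0.1, the smallest that 3 against 3 allows). The ratio of INSIG1 to INSIG2 was 30.8, 16.7 and 18.5 against 18.6, 12.4 and 14.3, and that of SCD to SCD5 was 24.7, 16.0 and 17.0 against 18.7, 12.5 and 12.4, with overlap in both (exact permutation p = 0.3 each). SREBF1 to SREBF2 was 0.671, 0.628 and 0.646 against 0.872, 0.650 and 0.621 (exact permutation p = 0.8), with the H295R-PM-Ptc+ replicate 1 library above the other 5. These 4 ratios and that of FADS1 to FADS2 make 5 in all, and the Benjamini-Hochberg adjusted exact permutation p was 0.25 for MBTPS2 to MBTPS1, 0.375 for INSIG1 to INSIG2 and SCD to SCD5, and 0.8 for SREBF1 to SREBF2.

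Of the 52 other pathway genes tested, 9 were higher and 6 lower in replicate 1 than in replicates 2 and 3, where 14.2% and 16.6% of all tested genes were. MLXIPL, a glucose-responsive activator of lipid synthesis genes, was higher (0.63 on the log2 scale, adjusted p = 0.0109), as were SLC25A1 (0.45, 4.88e-05), NR1H2, one of the LXR genes (0.33, 9.45e-05), and MID1IP1, an activator of acetyl-CoA carboxylase (0.30, 0.00135). ACSS1 (-0.25, 0.00371), ME1 (-0.22, 0.0114) and RNF145 (-0.23, 0.00150) were lower. The genes of these sentences were chosen after their values were seen. PTCH1 was lower in replicate 1 as well (-0.37, 0.00281).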
